A study of Homo sapiens with 15 samples.

Results

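The comparison described here is that of exposed cells at the later against the earlier chronic time point: 4 samples exposed for 30 weeks were set against 2 samples exposed for 15 weeks, which are 6 of the 15 samples of the series. The cells were BEAS-2B, an established human bronchial epithelial line, and the exposed cultures received nanoplastics of polyethylene terephthalate (PET-NPLs), the polymer of drink bottles, at 50 µg/mL. Total RNA depleted of ribosomal RNA was sequenced, and the deposited values are raw counts per gene. Unexposed control cells of the same 2 times (2 samples at 15 weeks and 3 at 30 weeks) and exposed cells at 24 h (2 samples) are given beside the comparison where they bear on it. Cells were passaged weekly and the particles renewed with the medium, so the 30-week cells had also been in culture for 15 weeks longer. All samples come from 1 cell line. The sources used here do not say whether replicates were separate cultures, so p-values measure the spread between these samples, which may be technical. By the labels, batch 1 holds every 24 h and every 15-week sample, whereas batch 2 is made up of 30-week samples. No batch holds exposed cells of both times, so for the comparison of 30 with 15 weeks time and batch cannot be told apart, and it has no within-batch value. The 24 h and 15-week samples lie within batch 1.

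Epithelial cells in long culture can shift the genes that hold them to each other and to the matrix, those that drive the cell cycle and those that answer stress. Ingested particles reach the lysosome, the acidic organelle in which the cell digests what it takes up and whose genes share a short promoter element bound by TFEB and its relatives. Gene counts from bulk RNA report the mean of a culture, and fewer cells of a kind cannot be told apart from less RNA per cell.

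Total counts per exposed sample lay between 26535277 and 30623950, so a gene at 1 CPM (counts scaled to the library size) had about 27 to 31 counts. Exposed replicate 2 at 30 weeks stood apart from the other 3: its correlation of log2 CPM across genes with them was 0.976 to 0.981, against 0.991 to 0.992 among them. It lay more than 2-fold outside the range of the other 3 in 414 of 13255 genes, against 7 to 11 genes for each of these. Its median share of the change seen in the other 3 samples was 69.5%, so lists whose higher or lower count it moves by over 1.5 times are also given without it. The 6 most abundant small noncoding RNAs took 9.75% to 10.2% of counts at 15 weeks and 17.0% to 21.5% at 30 weeks. Of 20 airway epithelial markers, 9 passed the filter on low counts. KRT8 (530 and 646 CPM at 15 weeks, 541 to 710 CPM at 30 weeks) and KRT18 were abundant, EPCAM had at most 7 counts and CDH1 at most 16 counts in any exposed sample, and KRT5, KRT14, TP63, NKX2-1 and FOXA2 were at 0 counts in all 6. Of 24 skeletal muscle markers 12 passed the filter, against 6 with only the 6 exposed samples. Those 12 summed to 9.49 and 11.6 CPM at 15 weeks and to 7.13 to 9.58 CPM at 30 weeks. In the 30-week controls, through which the filter can admit a marker, they summed to 242 to 310 CPM.

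Between 15 and 30 weeks 7697 of the 16740 tested genes changed in exposed cells (46%) at an adjusted p-value under 0.05 (edgeR's quasi-likelihood test with Benjamini-Hochberg adjustment), and a gene past this threshold is called below. Of these 3896 were higher (23.3%) and 3801 lower (22.7%) at 30 weeks. These shares are the background for every list count below, and a list near them does not stand out. A change of at least 2-fold was reached by 2643 called genes, 1475 upward and 1168 downward, and one of at least 4-fold by 424. The 2 groups did not overlap in 9392 genes (56.1%), and among the called genes 95.3% did not overlap. The median log2 fold change over all tested genes was 0.005. Without exposed replicate 2 at 30 weeks the count was 9064, and without either 15-week sample it was 5077 or 5069. Within batch 1, between exposed cells at 24 h and 15 weeks, 4349 genes (26%) were called, 2255 higher and 2094 lower.

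Control cells kept in parallel changed over the same interval and across the same batches, with 8419 genes called (50.3%). Of the genes called in exposed cells, 5813 (75.5%) were called in the same direction in controls, which is 69.0% of those called in controls. Another 1738 were called in exposed cells and not in controls, and 146 were called in opposite directions. Across all tested genes the log2 fold changes of the 2 arms had a Pearson correlation of 0.617 and a Spearman correlation of 0.711; genes are not independent, and the arms share their batches. Whether a change differed between the arms was tested as the difference of the 2 log2 fold changes, and 794 genes (4.74%) were called in it. Of these, 354 were not called in exposed cells, with 181 higher and 173 lower in controls. In 98 genes exposed cells rose and in 47 they fell while controls were not called. Exposed cells rose and controls fell in 86, and exposed cells fell and controls rose in 60. Where both arms moved the same way, the exposed change was the larger in 10 genes and the smaller in 139.

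**Figure D1:**
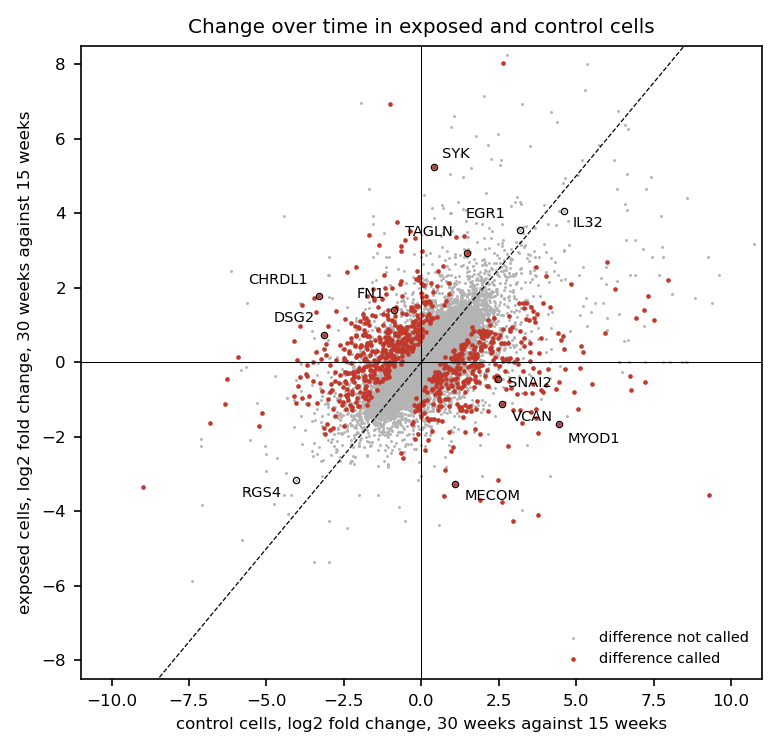
Each point is one of the 16740 tested genes, with its log2 fold change between 15 and 30 weeks in control cells on the x axis and in exposed cells on the y axis. Red points are the 794 genes called in the difference between the arms, and the dashed line marks equal change; 80.6% of genes have the same sign in both arms, while SYK, CHRDL1 and DSG2 lie above it and MECOM and MYOD1 below it.

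The direction of a gene's change followed its base composition in both arms. Among the decile of genes with the lowest GC content (29.8% to 38.5%), 4.15% were called higher and 52.9% lower in exposed cells, with a median log2 fold change of -0.58. In the eighth decile (55.1% to 58.4% GC) 44.7% were called higher and 4.66% lower, with a median of 0.46. The rank correlation of the log2 fold change with GC content across 15887 genes was 0.441 in exposed cells and 0.376 in controls, and for their difference it was -0.018. Within batch 1, between 24 h and 15 weeks, it was 0.005. Shorter transcripts were higher at 30 weeks, with a median of 0.37 for the shortest decile in exposed cells and 0.67 in controls. The difference between the arms had a median of -0.31 in that decile, and its rank correlation with transcript length was 0.162. A fit with an offset for each gene's GC content and transcript length, added after seeing the data, called 6868 genes, and 5057 of them were also called without it. Gene lists whose higher or lower count this fit moves by over 1.5 times are given with both; for mitochondrial messages it could not be run.

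**Figure D2:**
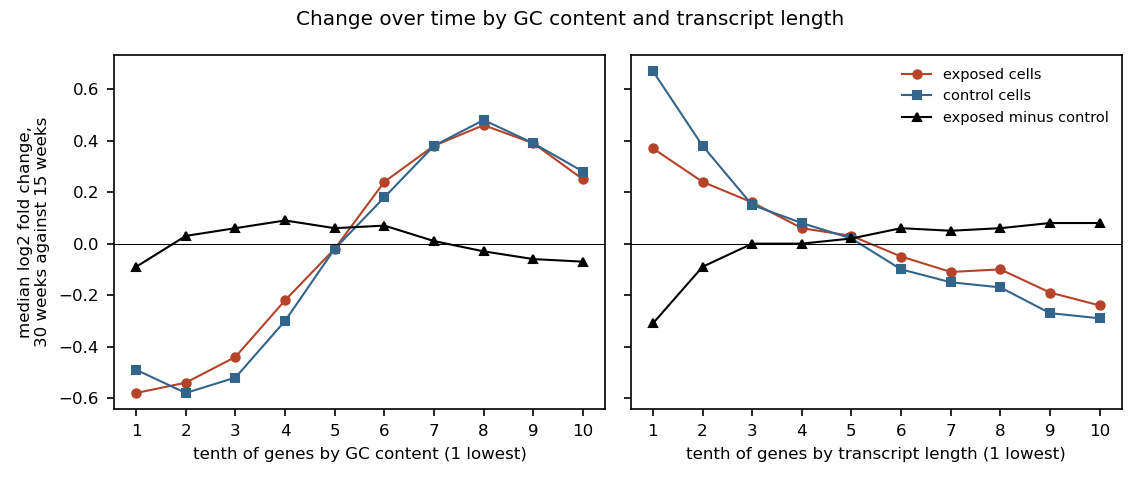
Median log2 fold change between 15 and 30 weeks (y axis) for deciles of the tested genes ordered by GC content (left) or transcript length (right), in exposed cells, in control cells and for their difference. In exposed cells the medians rise from -0.58 in the lowest GC decile to 0.46 in the eighth and fall to 0.25 in the tenth. For the difference they stay between -0.09 and 0.09 by GC content. By transcript length the difference is -0.31 in the shortest decile.

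Among genes with at least 5 CPM and no overlap, the largest increase of a messenger RNA was that of SYK (Entrez gene 6850, chromosome 9, 90801600 to 90898549 on GRCh38), a cytoplasmic tyrosine kinase best known from immune receptor signalling. Its level was 0.124 and 0.227 CPM at 15 weeks and 6.01, 7.6, 6.64 and 6.97 CPM at 30 weeks, with exposed replicate 2 the highest. The groups lay far apart, and the log2 fold change was 5.25 (standard error, SE, 0.458, edgeR adjusted p = 3.09e-06). Controls stood at 0.68 CPM and 0.89 ± 0.33 CPM (SD, n = 3), which differed by 0.42 and were not called, and the difference between the arms was 4.83 (edgeR adjusted p = 0.000349). TMEM40, a transmembrane protein gene, rose from 1.09 and 1.04 CPM to between 8.80 and 14.8 CPM, a log2 fold change of 3.40, against 1.37 in controls, and its difference was also called (2.03, edgeR adjusted p = 0.0268).

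IL32, a cytokine gene, and EGR1, an immediate-early transcription factor, were called in both arms. IL32 (Entrez gene 9235, chromosome 16, 3065403 to 3069530) was at 0.62 and 0.75 CPM at 15 weeks and at 12.02, 11.6, 11.7 and 10.7 CPM at 30 weeks. Its 30-week samples were close together and far above the earlier ones, with a log2 change of 4.07 (SE 0.251, edgeR adjusted p = 1.34e-07) against 4.61 in controls. EGR1 (Entrez gene 1958, chromosome 5, 138465479 to 138469303) went from 1.37 and 1.07 CPM to 14.9, 11.1, 13.6 and 17.5 CPM, a log2 change of 3.54 (SE 0.284, edgeR adjusted p = 9.99e-07) against 3.18 in controls. Neither gene was called in the difference.

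The other increases by the same rule were of noncoding RNAs, and their samples were less alike. RNR1 and RNR2, the ribosomal RNAs of the mitochondrion, were at 2.54 and 1.85 CPM and at 5.77 and 6.10 CPM at 15 weeks. At 30 weeks RNR1 was at 60.0, 387, 16.7 and 259.6 CPM and RNR2 at 143, 1003, 48.3 and 625 CPM, a spread of more than 10-fold between replicates. Their log2 fold changes of 6.36 (standard error 1.52) and 6.26 (standard error 1.41) were called, with 6.58 and 6.66 in controls. These RNAs are the kind that depletion kits remove, and how far removal differed between libraries was not tested. RNU1-4, a copy of the U1 spliceosomal RNA, rose from 6.17 and 5.00 CPM to between 143 and 226 CPM, and RNY1, a Y RNA, from 0.31 and 0.26 CPM to between 3.22 and 8.04 CPM. Both have near-identical copies, so their counts are uncertain.

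The largest decreases by the same rule follow. SCG2 (secretogranin, Entrez gene 7857, chromosome 2, 223596940 to 223602361), a protein of secretory granules, fell from 30.2 and 24.0 CPM to 1.38, 3.33, 1.67 and 1.34 CPM. All 30-week samples lay far below both earlier ones, with replicate 2 nearest to them, and the log2 fold change was -3.81 (standard error 0.287, edgeR adjusted p = 9.13e-07) against -4.74 in controls. RGS4, an inhibitor of G protein signalling, fell from 523 and 535 CPM to 53.2, 97.6, 45.8 and 39.6 CPM, a log2 change of -3.16 (SE 0.280, edgeR adjusted p = 1.67e-06). DIO2, which activates thyroid hormone, fell from 66.9 and 86.1 CPM to between 11.3 and 17.3 CPM, and PRLR, the prolactin receptor, from 8.75 and 11.7 CPM to between 1.84 and 2.36 CPM. COL6A3, a collagen chain, fell from 7.01 and 5.61 CPM to between 0.67 and 1.38 CPM. HR, the hairless corepressor, fell by 2.96 on the log2 scale against 4.37 in controls. SCG2, RGS4, DIO2, PRLR and COL6A3 were lower in exposed cells at 24 h than at 15 weeks, at 2.99, 226, 19.3, 1.21 and 1.15 CPM, so their 15-week level was the highest of the 3 times.

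MECOM and LSAMP fell in exposed cells and not in controls, and both were called in the difference. MECOM (Entrez gene 2122, chromosome 3, 169083507 to 169663712), a zinc finger transcription factor, was at 5.80 and 5.03 CPM at 15 weeks and at 0.398, 1.19, 0.382 and 0.282 CPM at 30 weeks. No sample overlapped, which was a condition for naming it. The log2 fold change was -3.25 (standard error 0.315, edgeR adjusted p = 3.15e-06), while controls rose by 1.08 to 18.5 ± 1.06 CPM (SD, n = 3) (difference -4.33, edgeR adjusted p = 1.49e-05). Its exposed level at 24 h was 15.3 CPM. LSAMP, an adhesion protein of neurons, fell from 7.23 and 6.65 CPM to between 0.99 and 1.61 CPM, a log2 fold change of -2.36 against 0.13 in controls (difference -2.49, edgeR adjusted p = 0.000139), from 29.5 CPM at 24 h.

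Among genes averaging at least 100 CPM, TAGLN (transgelin, an actin-binding protein of contractile cells, Entrez gene 6876) rose the most outside the small noncoding and mitochondrial RNAs. It was at 43.9 and 34.4 CPM at 15 weeks and at 249, 362, 296 and 293 CPM at 30 weeks, with no overlap, a condition for naming it. The log2 fold change was 2.94 (standard error 0.183, edgeR adjusted p = 1.34e-07) against 1.49 in controls, and the difference of 1.45 was called (edgeR adjusted p = 0.00113). At 24 h it stood at 249 CPM in exposed cells, so the 15-week level was the low point. The abundant genes that fell were DUSP10, a MAP kinase phosphatase, from 172 and 235 CPM to between 35.8 and 68.4 CPM, and SLC38A2, an amino acid transporter, from 1162 and 1697 CPM to between 380.2 and 523 CPM. UACA, OSBPL9 and USP33 fell by 1.76, 1.70 and 1.70 on the log2 scale. Of these 5, each fell in controls too, and none was called in the difference.

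**Figure D3:**
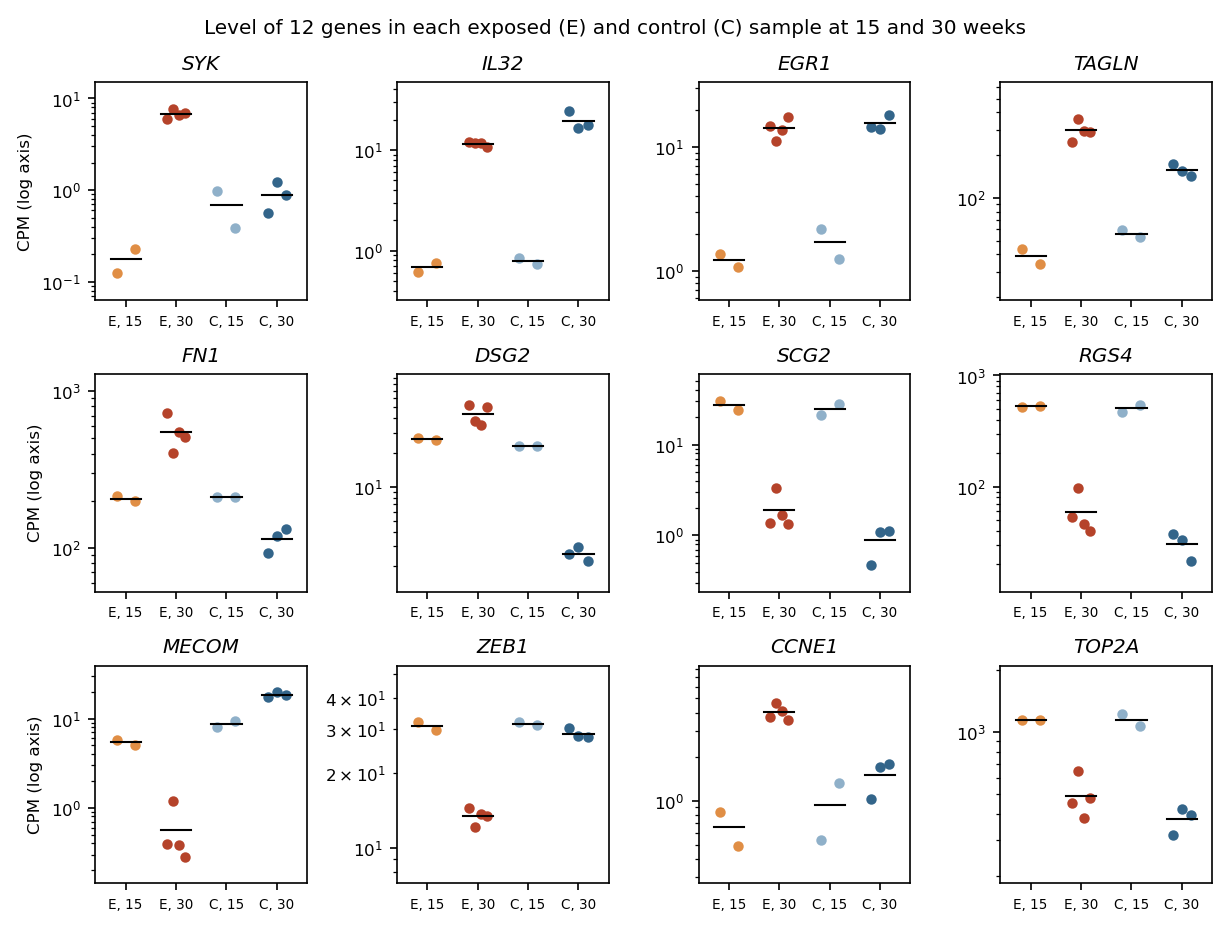
Level of 12 genes in CPM (log axis) in each exposed (E) and control (C) sample at 15 and 30 weeks, with the group mean as a bar. Exposed samples of the 2 times do not overlap for any of the 12, but no overlap was a condition for naming SYK, IL32, EGR1, TAGLN, SCG2, RGS4 and MECOM. For SYK (6.01 to 7.6 CPM), MECOM, FN1, DSG2, ZEB1 and CCNE1, among others, the 30-week exposed samples also lie away from the controls.

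Genes of the extracellular matrix moved in both directions. Of 16 matrix glycoprotein genes tested, 8 were called higher and 3 lower (all genes, 23.3% and 22.7%), with a median log2 fold change of 0.79 in exposed cells and 0.19 in controls, and 7 were called in the difference. FN1 (fibronectin, Entrez gene 2335, chromosome 2, 215360865 to 215436068), the main adhesive glycoprotein of the matrix, was at 213 and 199.8 CPM at 15 weeks and at 725, 405, 546 and 507 CPM at 30 weeks. Every 30-week sample was above both earlier ones, replicate 2 the lowest, with a log2 change of 1.40 (SE 0.217, edgeR adjusted p = 0.000114). Controls fell by 0.88, to 115 ± 19.7 CPM (SD, n = 3), and the difference was 2.29 (edgeR adjusted p = 0.000222). At 24 h the exposed cells held 2205 CPM, so FN1 was lowest at 15 weeks of the 3 times.

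FBLN1 and CCN2 rose as well. FBLN1, a fibulin that binds fibronectin, went from 10.6 and 13.2 CPM to 66.3, 30.2, 59.5 and 76.6 CPM, a log2 fold change of 2.29 against -0.06 in controls (difference 2.35, edgeR adjusted p = 0.00394). CCN2, a matricellular target of TGF-beta and YAP, went from 74.3 and 72.2 CPM to between 163 and 253.5 CPM, by 1.59 on the log2 scale against 0.30 in controls (difference 1.29, edgeR adjusted p = 0.00438). THBS1 (thrombospondin) fell from 1485 and 1617 CPM to 712, 490 (replicate 2), 599.6 and 466 CPM, a log2 change of -1.45 (SE 0.193, edgeR adjusted p = 3.53e-05) against -0.75 in controls, from 4534 CPM at 24 h. FBN1, the microfibril protein, fell by 0.51 on the log2 scale and VCAN, a proteoglycan, by 1.12. Both calls were lost when either 15-week sample was left out, and VCAN was not called in the fit with GC and length offsets.

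Of 20 collagen genes 2 were called higher and 6 lower (all genes, 23.3% and 22.7%), with a median of 0.09. In controls 5 were called higher and 12 lower, with a median of -0.55. COL4A5, a basement membrane chain, was at 45.1 and 46.0 CPM at 15 weeks and at 60.8 to 65.8 CPM at 30 weeks (log2 fold change 0.49), while controls fell by 3.07 to 6.27 CPM (difference 3.56, edgeR adjusted p = 2.32e-07). COL18A1 and COL7A1 fell by 0.84 and 1.03 on the log2 scale. With GC and length offsets neither COL4A5 nor COL5A2 was called, and 7 collagens were lower. Of 10 laminins 1 was called higher (LAMA1, log2 fold change 1.08) and 2 lower (LAMA4, -1.76, and LAMB1, -0.71), against 2 and 3 with GC and length offsets and 3 and 3 without exposed replicate 2 at 30 weeks.

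Among 15 proteases and their inhibitors 8 were called higher and 1 lower, with a median of 0.69 in exposed cells and 0.65 in controls, or 7 and 2 with GC and length offsets. MMP15, a membrane-bound metalloproteinase, rose from 6.61 and 5.74 CPM to between 15.2 and 23.03 CPM (log2 fold change 1.61 against 0.06, difference 1.55, edgeR adjusted p = 0.00131). MMP9, a gelatinase, rose from 0.25 and 0.06 CPM to between 0.69 and 0.90 CPM. MMP16 fell by 1.07 on the log2 scale.

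The integrins, receptors that bind cells to the matrix, were called higher in 3 and lower in 6 of 14, with a median of -0.52 against 0.12 in controls. ITGB3, the beta chain of the vitronectin receptor, went from 5.89 and 6.59 CPM to 28.0, 18.8, 21.6 and 24.2 CPM, a log2 change of 1.89 (SE 0.190, edgeR adjusted p = 4.22e-06) against 0.39 in controls (difference 1.5, edgeR adjusted p = 0.00246). ITGA5, the alpha chain of the fibronectin receptor, rose by 1.07 on the log2 scale. ITGB4, of hemidesmosomes, rose from 4.84 and 4.64 CPM to 14.8, 5.47, 10.3 and 18.5 CPM, by 1.37 on the log2 scale, and by more in controls, by 3.6. ITGA2, a collagen receptor chain, fell from 32.0 and 32.3 CPM to between 6.80 and 13.1 CPM, by 1.80 on the log2 scale against 2.94 in controls. ITGB1, the most widely shared beta chain, fell from 1231 and 1146 CPM to between 438 and 757 CPM, and ITGB8 by 1.42 on the log2 scale.

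Junction genes were few and mixed. Of 9 desmosome genes 4 were called higher and 1 lower, of 12 cadherins and catenins 4 and 3, and of 12 tight junction genes 3 and 1, or 5 and 3 with GC and length offsets. Their medians in exposed cells and in controls were 0.14 and -0.24, 0.56 and -1.1, and 0.04 and -0.03, in that order. In the difference 2 genes of each list were called, all higher. DSG2, a desmosomal cadherin (Entrez gene 1829, chromosome 18, 31498177 to 31549008), went from 27.0 and 25.7 CPM to 52.4, 37.8, 34.9 and 50.7 CPM, a log2 change of 0.74 (SE 0.164, edgeR adjusted p = 0.00184). The groups did not overlap, and controls fell by 3.16 to 2.57 ± 0.37 CPM (SD, n = 3) (difference 3.89, edgeR adjusted p = 4.95e-07). PERP and JUP, of the desmosome as well, rose by 1.58 and 1.42 on the log2 scale, and PKP3 fell by 0.40. CLDN1, a claudin, rose from 1.61 and 0.84 CPM to between 8.70 and 11.5 CPM, by 2.97 on the log2 scale. F11R, a junctional adhesion molecule, rose by 0.89 against a fall of 0.49 in controls (difference 1.39, edgeR adjusted p = 0.000222). CDH3 rose by 1.39 while controls fell by 1.08 (difference 2.47, edgeR adjusted p = 0.006), and CTNNB1, the catenin of Wnt signalling, fell by 1.14 on the log2 scale. CDH1, at 3 counts or fewer in both 15-week samples, was at least 5.80-fold higher at 30 weeks, with 16 counts in each sample.

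Of 12 keratins 4 were called higher and 1 lower, but 1 and 2 with GC and length offsets, and without either 15-week sample at most 1 was called higher. The keratin median was 0.64 in exposed cells and -0.84 in controls, and 4 keratins were called higher in the difference and 0 lower. KRT7, of simple epithelia, fell from 6.39 and 5.29 CPM to 1.34, 3.29, 1.77 and 1.27 CPM, by 1.6 on the log2 scale against 3.23 in controls, and had stood at 1376 CPM in exposed cells at 24 h. Of 8 transcription factors of epithelial to mesenchymal transition 1 was called higher and 1 lower, against 2 and 3 with GC and length offsets and 1 and 2 without exposed replicate 2 at 30 weeks. In the difference between the arms 1 of the 8 was called higher and 3 lower, or 0 and 3 by limma-voom (all genes, 4.74%). ZEB1, a repressor of epithelial genes (Entrez gene 6935, chromosome 10, 31318417 to 31529804), fell from 31.9 and 29.6 CPM to 14.4, 12.1, 13.6 and 13.4 CPM. Its groups were tight and far apart, with a log2 change of -1.20 (SE 0.110, edgeR adjusted p = 2.26e-06) against -0.13 in controls (difference -1.07, edgeR adjusted p = 0.000849). With GC and length offsets its log2 fold change was -0.63 and still called. FOXC1 rose from 9.40 and 7.76 CPM to between 13.3 and 22.2 CPM. TWIST1 was at 12.7 and 13.4 CPM and then at 11.8 to 14.1 CPM in exposed cells. SNAI2 was at 3.72 and 3.64 CPM and then at 2.10 to 3.43 CPM, and neither was called in the exposed change. VIM, the mesenchymal intermediate filament, was at 1151 and 1084 CPM and then at 1189 to 1407 CPM, also without a call.

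Of 24 growth factor ligands, receptors and binding proteins 10 were called higher and 4 lower, with a median of 0.35 in exposed cells and 0.33 in controls. HBEGF, a ligand of the EGF receptor, rose from 33.5 and 23.3 CPM to 65.3, 92.5, 76.6 and 49.8 CPM, a log2 change of 1.32 (SE 0.236, edgeR adjusted p = 0.000341). IGFBP4, which binds insulin-like growth factors, rose from 24.9 and 28.9 CPM to between 52.6 and 83.4 CPM, by 1.44 on the log2 scale against -0.31 in controls (difference 1.75, edgeR adjusted p = 0.000871). FGF5 rose from 1.49 and 0.42 CPM to between 1.90 and 5.75 CPM, a call lost without replicate 2 at 15 weeks. MET, the receptor of hepatocyte growth factor (Entrez gene 4233, chromosome 7), fell from 328 and 327 CPM to 159.7, 178, 135 and 121 CPM. All 30-week samples lay far below the earlier ones, a log2 change of -1.14 (SE 0.150, edgeR adjusted p = 3.18e-05), and controls fell further, by 2.29 to 51.9 CPM (difference 1.16, edgeR adjusted p = 0.0056). FGF2 fell by 0.99 on the log2 scale, and NRG1, a neuregulin, by 1.17 while controls rose by 0.91.

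In the Wnt list 4 of 14 genes were called higher and 1 lower, or 5 and 2 without exposed replicate 2 at 30 weeks. WNT7B, a Wnt ligand of lung epithelium, was at 0.62 and 0.52 CPM at 15 weeks and at 6.77, 2.52, 4.21 and 4.61 CPM at 30 weeks, with replicate 2 the lowest. The log2 fold change was 2.98 (standard error 0.462, edgeR adjusted p = 0.000116) against 0.04 in controls (difference 2.94, edgeR adjusted p = 0.0219), and the exposed level at 24 h was 5.02 CPM. WNT5B rose by 0.73 while controls fell by 2.11, a call lost when either 15-week sample was left out, and SFRP1, a Wnt antagonist, rose by 0.66. Of 13 genes of BMP signalling 2 were called higher and 3 lower, against 3 and 6 with GC and length offsets and 2 and 5 without exposed replicate 2 at 30 weeks. CHRDL1, a secreted BMP antagonist, rose from 5.12 and 4.48 CPM to 18.4, 26.2, 11.6 and 9.72 CPM, by 1.78 on the log2 scale, and controls fell by 3.31 (difference 5.09, edgeR adjusted p = 7.69e-05). GREM1, another antagonist, rose from 70.2 and 66.9 CPM to between 88.5 and 262 CPM. NOG (noggin) fell from 36.2 and 35.6 CPM to between 7.46 and 17.4 CPM while controls rose by 0.67 (difference -2.25, edgeR adjusted p = 0.000809). Of 13 genes of TGF-beta signalling 2 were called higher, LTBP1 and SMAD3, and 3 lower, SKIL, TGFBR3 and SMAD7. The counts of the Wnt, BMP and TGF-beta lists compare with 23.3% higher and 22.7% lower over all genes.

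Cell cycle genes also moved in both directions. Of 24 genes of G2 and mitosis 4 were called higher and 12 lower, with a median of -0.43 in exposed cells and -0.76 in controls. TOP2A, the topoisomerase of dividing cells (Entrez gene 7153), went from 1139 and 1141 CPM to 452, 645, 383 and 478.5 CPM, a log2 change of -1.22 (SE 0.175, edgeR adjusted p = 6.25e-05), or -0.68 with GC and length offsets. KIF11, a spindle motor, and CENPE, a kinetochore motor, fell by 1.27 and 1.09 on the log2 scale, whereas UBE2C, PLK1 and BIRC5 rose by 0.67, 0.86 and 0.61. Of 26 DNA replication genes 11 were called higher and 7 lower, among them TYMS (1.30) and RRM2 (0.75), which supply nucleotides, and POLA1 (-0.87) and CDC6 (-0.75). CCNE1 (cyclin E1) rose from 0.84 and 0.49 CPM to 3.73, 4.66, 4.10 and 3.56 CPM, a log2 change of 2.59 (SE 0.336, edgeR adjusted p = 2.91e-05). Its controls were not called (0.69), the difference was called (1.90, edgeR adjusted p = 0.0309), and its level at 24 h was 8.63 CPM.

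Of 15 regulators of G1 4 were called higher and 3 lower, near the shares over all genes (23.3% and 22.7%). Their median was 0.24 in exposed cells and 0.39 in controls. CDKN1A (p21, an inhibitor of cyclin-dependent kinases, Entrez gene 1026) was at 28.9 and 27.1 CPM at 15 weeks and at 93.7, 81.7, 80.8 and 111 CPM at 30 weeks, a log2 change of 1.72 (SE 0.160, edgeR adjusted p = 2.44e-06) against 2.03 in controls. CDKN2A, another inhibitor, rose by 0.82 on the log2 scale, and RBL1, a pocket protein that restrains the cell cycle, fell by 0.91. CDK4 was at 189.5 and 177 CPM and then at 422, 427, 433 and 427 CPM, by 1.22 on the log2 scale against 1.19 in controls. Of 21 genes listed as p53 targets 12 were called higher and 2 lower (SESN1 and RRM2B), with a median of 0.42 in exposed cells and 0.46 in controls. In controls 10 were called higher and 4 lower. In the difference 0 of the 21 were called by edgeR or DESeq2, and 5 had an unadjusted p under 0.05. Of 24 DNA repair genes 3 were called higher and 11 lower, with a median of -0.18, or 6 and 12 without exposed replicate 2 at 30 weeks. FANCI, of the Fanconi anaemia pathway, fell from 224 and 233 CPM to 102, 124, 89.5 and 106 CPM, a log2 change of -1.12 (SE 0.143, edgeR adjusted p = 2.71e-05). XRCC2, of homologous recombination, fell by 1.05 on the log2 scale, and ERCC1, of nucleotide excision repair, rose by 0.88. In the difference 0 of the 24 were called by edgeR or DESeq2, and 3 had an unadjusted p under 0.05. Over all genes edgeR called 4.74%, and 2559 of 16740 had an unadjusted p under 0.05. A count of 0 in so short a list therefore does not show an equal change.

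Genes of antigen presentation were mostly higher. Of 14 genes of the MHC class I pathway 11 were called higher and 2 lower, with a median of 0.70 against 0.67 in controls, or 8 higher and 1 lower with GC and length offsets. HLA-B (Entrez gene 3106, chromosome 6), a class I heavy chain, was at 391 and 360.1 CPM at 15 weeks and at 917, 824, 880 and 1074 CPM at 30 weeks, a log2 change of 1.30 (SE 0.143, edgeR adjusted p = 8.58e-06). Its groups were far apart, and controls rose by 1.29 as well; HLA genes share sequence, so their counts are uncertain. HLA-F rose by 1.24 on the log2 scale against 0.18 in controls (difference 1.06, edgeR adjusted p = 0.00438). PSMB9, of the immunoproteasome, rose from 25.2 and 24.5 CPM to between 59.5 and 72.6 CPM. The peptidases that trim the presented peptides went the other way: ERAP2 fell by 1.28 and ERAP1 by 0.50 on the log2 scale, the second not called with GC and length offsets.

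Of 27 interferon-stimulated genes 15 were called higher and 5 lower, with a median of 0.91 in exposed cells and 0.59 in controls, or 16 and 1 with GC and length offsets. OAS1, a sensor of double-stranded RNA, went from 1.74 and 1.82 CPM to 6.70, 6.45, 6.08 and 6.48 CPM, a log2 change of 1.85 (SE 0.284, edgeR adjusted p = 0.000107). OAS2 and IFI27 rose by 1.59 and 1.95 on the log2 scale. Of 17 cytokine and chemokine genes tested 8 were called higher and 2 lower. LIF, a cytokine of the interleukin 6 family, rose from 1.09 and 0.71 CPM to 4.35, 7.04, 4.10 and 3.38 CPM, by 2.38 on the log2 scale, while IL7 fell from 8.81 and 8.92 CPM to between 2.86 and 4.05 CPM. In the difference 0 of the 17 were called by edgeR (all genes, 4.74%) and 1 by DESeq2. An unadjusted p under 0.05 was found for 2, against 2559 of all 16740 genes.

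Immediate-early genes, which cells switch on within minutes of a stimulus through serum response and AP-1 factors, were higher as a list. Of 19 tested 14 were called higher and 0 lower by edgeR (0 lower unadjusted or by DESeq2), with a median of 0.88 against 0.77 in controls. The count was 9 with GC and length offsets, and 7 without replicate 2 at 15 weeks. Besides EGR1, ATF3 rose from 5.71 and 4.58 CPM to 18.8, 14.9, 17.5 and 17.0 CPM, by 1.73 on the log2 scale, and DUSP5, a phosphatase of ERK, from 12.5 and 12.3 CPM to between 30.3 and 42.4 CPM. The CArG box, the site of serum response factor, was searched on both strands in the 250 bases before the RefSeq start of each gene (GRCh38.p14). It was found in 1 of 15 promoters of the list with an entry, that of EGR1, against 0.992% of the promoters of 12494 tested genes. The stretch of EGR1, the gene of the list with the largest increase, lies at chr5:138465349-138465430 on the plus strand, 130 to 49 bases before the start, and capitals mark both boxes.
EGR1: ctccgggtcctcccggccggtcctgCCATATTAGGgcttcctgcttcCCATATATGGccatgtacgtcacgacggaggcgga

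Of 24 lysosomal genes tested 16 were called higher and 0 lower by edgeR (0 lower unadjusted, by DESeq2 or by limma-voom), with a median of 0.48 against 0.38 in controls, and 14 higher with GC and length offsets. Without exposed replicate 2 at 30 weeks, and with limma-voom and surrogate variables, 16 were higher and 2 lower. Their summed level was 2910 and 2837 CPM at 15 weeks and 4440, 4268, 4290 and 4312 CPM at 30 weeks, with no overlap. NEU1, lysosomal sialidase (Entrez gene 4758, chromosome 6, 31857659 to 31862821), was at 54.2 and 50.8 CPM and then at 147, 179, 143 and 155 CPM, a log2 change of 1.57 (SE 0.146, edgeR adjusted p = 2.44e-06) against 1.28 in controls. MCOLN1, the calcium channel of the lysosome, rose from 7.79 and 6.36 CPM to between 13.2 and 17.8 CPM, by 1.14 on the log2 scale. LAMP1, the main membrane glycoprotein, was at 246 and 226 CPM and then at 249 to 286.5 CPM and was not called. In the difference 0 of the 24 were called by edgeR (all genes, 4.74%) and 2 by DESeq2. An unadjusted p under 0.05 was found for 4, against 2559 of all 16740 genes.

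The element TCACGTG, a core of the site bound by TFEB, was searched in either orientation in the same windows. It was in 7 of 17 lysosomal promoters with an entry (41.2%), against 4.92% of the promoters of tested genes and 3.39% of all 27195 promoters. Of these 7, 5 belonged to genes called higher, and of the 10 without it 7 did; LAMP1 and GAA held it and were not called. The stretches of the 5 called genes with a match are shown; 10 of the 17 promoters lack it, and a match is a description and not evidence of binding. Capitals mark TCACGTG or its complement with an adjoining base where both strands match. CTSD (cathepsin D), ATP6V0D1 (a proton pump subunit) and CTSA (cathepsin A) rose by 0.48, 0.47 and 0.84 on the log2 scale. The stretches lie at chr6:31862917-31862973 (minus strand), chr19:7522557-7522623 (plus), chr20:45891267-45891334 (plus), chr16:67481185-67481242 (minus) and chr11:1763943-1763999 (minus), in the order printed.
NEU1: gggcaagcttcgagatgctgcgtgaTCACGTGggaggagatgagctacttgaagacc
MCOLN1: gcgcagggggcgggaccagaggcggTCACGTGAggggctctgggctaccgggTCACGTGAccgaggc
CTSA: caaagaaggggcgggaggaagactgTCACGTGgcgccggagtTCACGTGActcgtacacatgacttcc
ATP6V0D1: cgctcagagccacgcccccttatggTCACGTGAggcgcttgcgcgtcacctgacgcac
CTSD: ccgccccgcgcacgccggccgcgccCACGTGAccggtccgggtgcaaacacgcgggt

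Endocytosis genes, which serve the uptake of particles, were called higher in 11 of 21 and lower in 4, with a median of 0.47 in exposed cells and 0.64 in controls. FLOT1, a flotillin, rose from 38.8 and 37.6 CPM to 94.5, 84.0, 96.6 and 88.7 CPM, a log2 change of 1.25 (SE 0.117, edgeR adjusted p = 2.44e-06) against 1.22. RAB7A, of late endosomes, and DNM1, a dynamin, rose by 1.12 and 1.03 on the log2 scale. CAV1, the coat protein of caveolae, fell from 349 and 352 CPM to 145, 191, 143 and 131 CPM, by 1.20 on the log2 scale against 0.78 in controls, from 1204 CPM at 24 h, and CAV2 fell by 0.95.

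Of 21 antioxidant and iron genes under NRF2, 5 were called higher and 7 lower, with a median of -0.05. FTH1, the ferritin heavy chain (Entrez gene 2495), rose from 83.6 and 92.9 CPM to 494, 294.5, 376 and 453 CPM, a log2 change of 2.20 (SE 0.206, edgeR adjusted p = 2.45e-06), and FTL, its light chain, from 663 and 713 CPM to between 1437 and 2139 CPM. Both have many processed copies, so their counts are uncertain. SLC7A11, the cystine transporter, fell from 67.0 and 79.3 CPM to 18.7, 20.2, 19.5 and 17.2 CPM, a log2 change of -1.95 (SE 0.126, edgeR adjusted p = 1.51e-07). All 3 were called in controls as well, by 2.35, 1.86 and -2.17. Of 5 metallothioneins tested 1 was called higher, MT2A (1.13), and 1 lower, MT1M, which was under 1 CPM; 2 were lower with GC and length offsets or without exposed replicate 2 at 30 weeks. Of 12 genes of the aryl hydrocarbon receptor response 3 were called higher and 3 lower, near the shares over all genes (23.3% and 22.7%).

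Chaperones were mostly lower. Of 12 heat shock genes of the cytosol 2 were called higher and 7 lower, with a median of -0.61 against -0.73 in controls, or 4 and 7 with GC and length offsets, and their summed level fell from 8141 and 7349 CPM to 4414, 6764, 4186 and 3995 CPM. HSPA8, the constitutive chaperone and the most abundant gene named here from that list, was at 4018 and 3425 CPM at 15 weeks and at 1426, 3317, 1390 and 1310 CPM at 30 weeks. Replicate 2 stayed close to the 15-week samples, and the call (log2 fold change -1, edgeR adjusted p = 0.0114) was lost without replicate 1 at 15 weeks. HSPH1 fell by 1.07 and HSPB1, a small heat shock protein, rose by 1.04 on the log2 scale. Of 19 genes of endoplasmic reticulum stress 11 were called higher and 3 lower, but 6 and 3 with GC and length offsets, and 4 and 2 without replicate 1 at 15 weeks. HSPA5, the chaperone BiP, rose from 165 and 180.1 CPM to 377.5, 210, 315 and 306 CPM, and DNAJC3 fell by 1.12 on the log2 scale.

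Of 19 cholesterol synthesis genes 4 were called higher and 8 lower in exposed cells, with a median of 0.00 against -0.63 in controls, where 2 were higher and 11 lower. Without exposed replicate 2 at 30 weeks 8 were higher and 8 lower in exposed cells. In the difference 8 of the 19 were called, all with the lesser decrease or the greater increase in exposed cells, and 8 of 19 compares with 4.74% over all genes. STARD4, a sterol carrier, fell by 1.17 against 2.04 (difference 0.86, edgeR adjusted p = 0.0368). PMVK rose by 1.86. Of 23 glycolytic and hypoxia genes 5 were called higher and 3 lower, or 5 and 5 with GC and length offsets. HIF1A fell from 201 and 217 CPM to between 90.0 and 147 CPM, and HK2 (hexokinase) and ENO2 (an enolase) rose by 1.02 and 1.24.

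All 13 messenger RNAs of the mitochondrial genome tested were called higher, with a median of 2.08 in exposed cells and 1.97 in controls. Their sum rose from 895 and 969 CPM to 5128, 2879, 4856 and 4682 CPM, with replicate 2 the lowest and no overlap. CYTB, of respiratory complex III, was at 29.4 and 34.3 CPM and then at 307, 88.3, 238 and 249 CPM, by 2.79 on the log2 scale. Genes of the respiratory chain in the nucleus were called higher in 17 of 37 and lower in 5, with a median of 0.47, or lower in 11 without exposed replicate 2. COX5B, COX8A and UQCRQ rose by 1.16, 1.13 and 1.08 on the log2 scale, while ATP5F1A fell by 0.71.

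Cytosolic ribosomal protein genes were called higher in 28 of 82 and lower in 8, with a median of 0.44 in exposed cells and 0.92 in controls. Their sum was 27900 and 26700 CPM at 15 weeks and 27690, 51100, 37990 and 29070 CPM at 30 weeks, so replicate 2 held the most. Without it 27 were higher and 15 lower, with a median of 0.19. RPLP1 rose from 111 and 113 CPM to between 253 and 430.1 CPM, and RPL14 fell from 185 and 171 CPM to between 68.6 and 109 CPM. Of 65 histone genes, whose messages largely lack poly(A) tails, 56 were called higher and 0 lower by edgeR (0 lower unadjusted or by DESeq2), with a median of 1.03 against 1.62 in controls, and 42 and 4 with GC and length offsets. Without exposed replicate 2 at 30 weeks 56 were higher and 2 lower, and with limma-voom and surrogate variables 60 and 2. H2BC7 went from 75.8 and 66.8 CPM to 209, 200.5, 277 and 226 CPM. Histone genes are near-identical within families, so the counts of single members are uncertain. The 6 small noncoding RNAs were all called higher, but 2 of 6 with GC and length offsets. SNORD3A, of ribosomal RNA processing, went from 10320 and 7740 CPM to between 23650 and 37630 CPM.

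HOX genes, which give cells their position along the body axis, were called higher in 13 of 23 and lower in 0 by edgeR (0 lower unadjusted or by DESeq2, 1 by limma-voom with surrogate variables), with a median of 1.27 against 0.92 in controls, and in 9 with GC and length offsets. HOXC8 was at 0.12 and 0.26 CPM at 15 weeks and at 3.91, 2.66, 3.93 and 3.73 CPM at 30 weeks, a log2 change of 4.19 (SE 0.521, edgeR adjusted p = 2.11e-05). HOXC4 and HOXB9 had 3 counts or fewer in each 15-week sample, and against that floor they were at least 10.4-fold and 8.80-fold higher. Their summed level rose from 38.1 and 36.6 CPM to between 63.7 and 72.1 CPM.

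Zinc finger genes of chromosome 19, a clustered family of repressors, were called lower in 149 of 228 and higher in 5, with a median of -0.82 in exposed cells and -1.03 in controls. With GC and length offsets 110 were lower and 12 higher, with a median of -0.44, and without exposed replicate 2 at 30 weeks 148 were lower and 9 higher. Their summed level went from 2712 and 2722 CPM to 1726, 1707, 1661 and 1758 CPM, and replicate 2 did not stand apart. ZNF418 fell from 1.12 and 1.56 CPM to between 0.18 and 0.46 CPM, and ZNF580, ZNF574 and ZNF581 were among the 5 that rose.

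**Figure D4:**
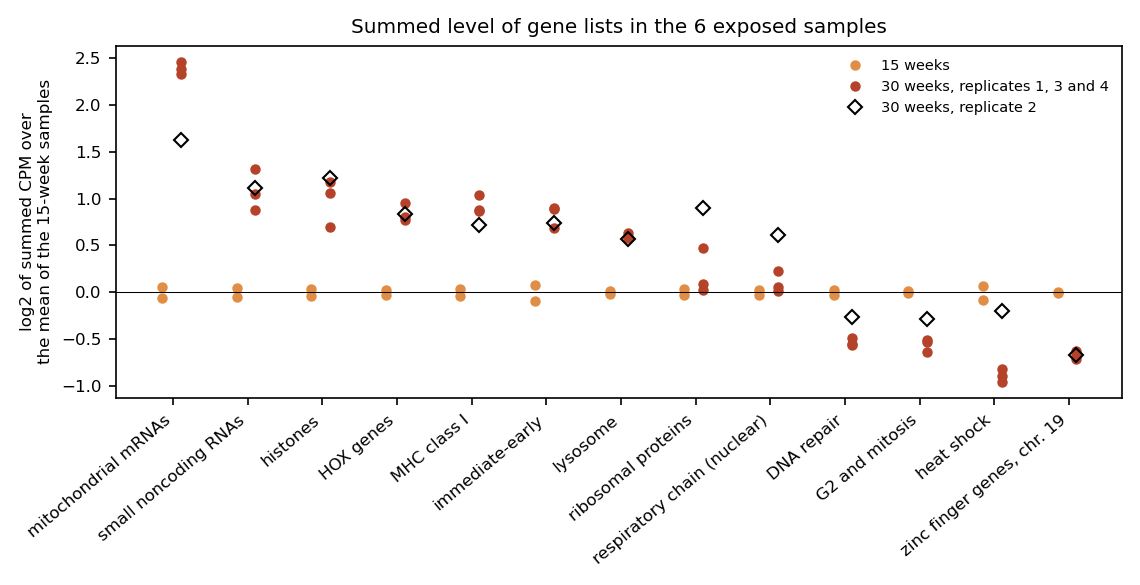
Log2 of the summed CPM of each gene list in the 6 exposed samples (y axis), relative to the mean of both 15-week samples, for 13 lists (x axis). Replicate 2 at 30 weeks (open diamonds) is the lowest 30-week sample for mitochondrial messages (2879 CPM) and the highest for ribosomal proteins (51100 CPM) and heat shock genes (6764 CPM).

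**Figure D5:**
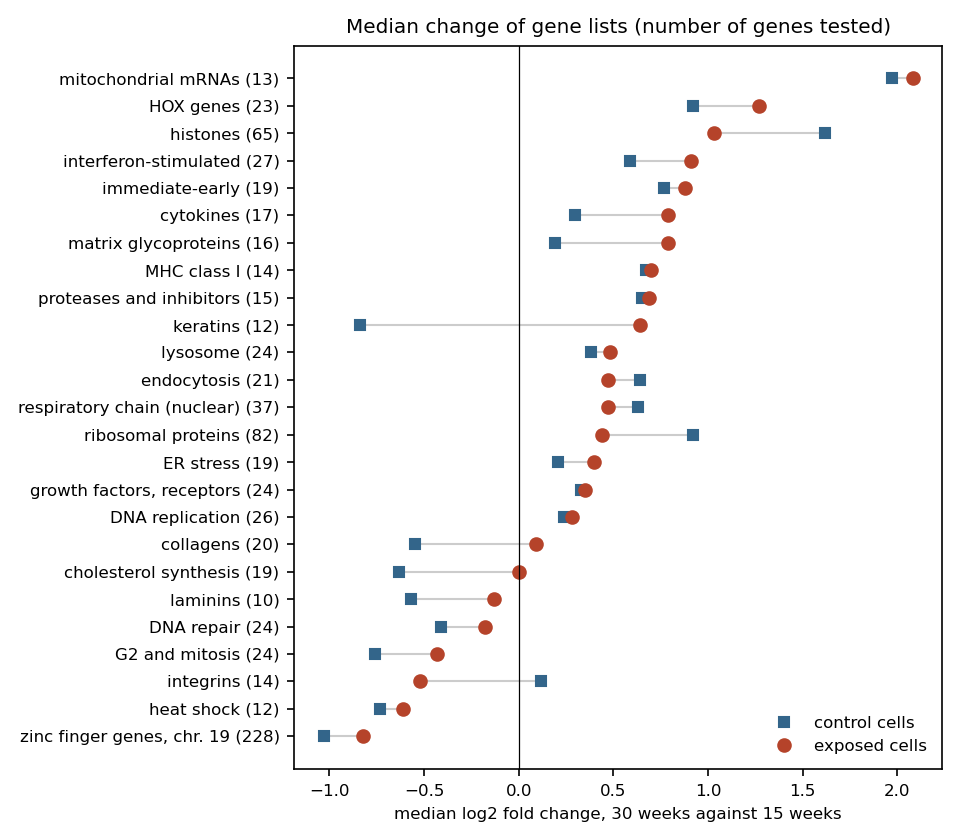
Median log2 fold change between 15 and 30 weeks (x axis) of 25 gene lists (number of genes tested in brackets) in exposed and in control cells. Both arms have the same sign for the highest and the lowest list, 2.08 and 1.97 for mitochondrial messages and -0.82 and -1.03 for zinc finger genes. The sign differs between exposed and control cells for keratins (0.64 and -0.84), integrins (-0.52 and 0.12) and collagens (0.09 and -0.55).

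Beyond the lists, the genes called both in the exposed change and in the difference were ranked by that difference. ADD2, an adducin of the membrane skeleton, rose from 0.84 and 1.10 CPM to 9.78, 6.17, 8.83 and 6.2 CPM, a log2 fold change of 2.99 against -0.65 in controls, where it was not called. AUTS2, a regulator of neural development, rose from 1.43 and 1.40 CPM to between 4.49 and 8.94 CPM while controls fell by 1.21. MLPH, melanophilin of vesicle transport, fell in both arms, from 28.0 and 28.7 CPM to between 9.22 and 13.9 CPM in exposed cells and to 0.94 CPM in controls. On the other side stood genes that rose in controls. MYOD1, the master factor of skeletal muscle, was at 1.37 and 1.56 CPM and then at 0.31 to 0.76 CPM in exposed cells, against 85.3 CPM in the 30-week controls. CELF2, an RNA-binding protein, was at 3.75 and 2.08 CPM and then at 0.52 to 1.86 CPM, against 68.8 CPM. Of 24 muscle markers 12 passed the filter, against 6 with only the 6 exposed samples. The filter admits genes that are high in the 30-week controls alone, so the count called in controls was partly fixed by it. Of the 12, 1 was called higher in exposed cells, TNNC1, at no more than 1.58 CPM, and 1 lower, MYOD1. In controls 11 were called higher. With GC and length offsets 4 were lower in exposed cells, and 2 without exposed replicate 2 at 30 weeks.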

How the data were processed

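Reads were filtered by the authors (Rfastp) and aligned to GRCh38, Rsubread gave reads per gene, and the raw counts were deposited; the counting strand and the handling of multimapping reads are not given in the sources used here. The table held 28395 genes for 15 samples, and 27745 Entrez numbers carried a symbol in the RefSeq GRCh38.p14 annotation, the source of coordinates and promoters. GC content and transcript length were those of the Ensembl canonical transcript of each gene in GENCODE. The main test was edgeR 4.0.16 under R 4.3.3, with DESeq2 1.42.0, limma 3.58.1 and sva 3.50.0 used for alternatives. filterByExpr on the 6 conditions kept 16740 genes, libraries were scaled by TMM, and 1 quasi-likelihood fit on all 15 samples gave the contrasts of exposed cells, of controls, and of their difference, with Benjamini-Hochberg adjustment over all genes tested and a threshold of 0.05. CPM are TMM-scaled. A group with at most 3 counts in each sample is at the floor, and a fold against that floor is a lower bound that covers counting error only.

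Genes were named by rule: the 8 largest called changes in each direction with at least 5 CPM and no overlap, the 6 largest among genes averaging at least 100 CPM, the 6 largest by the difference, and up to 3 called genes per list and direction. KRT8, KRT18, EPCAM, VIM, TWIST1, SNAI2, LAMP1 and GAA are list members given for their values, and CTSD, CTSA and ATP6V0D1 were named for their promoters after their values were seen. The comparison and the lists were chosen with earlier results of these data known. Some named genes are not reported here. Alternatives were DESeq2, limma-voom with and without surrogate variables, other scalings, filters and thresholds, fewer samples in the fit, a replicate block, each replicate left out and, added after seeing the data, GC and length offsets.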

Additional observations from a re-analysis of the deposited data

Results flagged for a closer look

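Of 228 named genes, 20 had a single exposed sample at 30 weeks whose gap to the nearest of the other 3, divided by the range of the 4, was above Dixon's critical value of 0.829; chance gives about 1 in 20. In 17 of the 20 the sample was replicate 2. The ratio was 0.8339 for SCG2, 0.8717 for MECOM, 0.8992 for OSBPL9, 0.8945 for CDH10, 0.8413 for LAMA4, 0.9055 for LIG4, 0.9143 for DNAJA1 and 0.9423 for HSPA8. It was 0.8405 for HIF1A, 0.8912 for ATP5PB, 0.9082 for ATP5F1A, 0.9583 for UQCRC2, 0.8516 for GSTM3, 0.9339 for SGCE, 0.9131 for RPL7, 0.8942 for RPL14 and 0.8448 for HOXC8. The other samples were replicate 1 for OAS2 (0.9146), replicate 4 for HLA-F (0.8305) and replicate 3 for H3C11 (0.8544). For LIG4, of DNA end joining, the 30-week levels were 15.0, 32.8, 14.2 and 15.9 CPM against 40.3 and 40.2 CPM at 15 weeks.

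By rule, 12 genes were named because they were called in the difference and in the exposed change, with the largest differences. Their calls are therefore no further test, and in all 52 of the 228 named genes were called in the difference. The difference is given in log2 units, as the exposed minus the control change. It was 5.092 for CHRDL1, 4.834 for SYK, 3.893 for DSG2, 3.77 for MLPH, 3.643 for ADD2 and 3.567 for AUTS2. It was -6.362 for LRRN4CL, -6.113 for MYOD1, -5.753 for FLT4, -5.218 for CELF2, -4.456 for COL24A1 and -4.329 for MECOM. LRRN4CL and FLT4 were under 1 CPM in each exposed sample and at 22.9 and 12.5 CPM in the 30-week controls.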

How the results depend on the processing

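The count of 7697 genes in exposed cells was 2643 with a fold of at least 2 and ran from 5069 to 9064 with each replicate left out. In controls the count of 8419 was 3994 with a fold of at least 2 and ran from 6332 to 8244. The 794 genes of the difference became 1973 with limma-voom and 2 surrogate variables and 403 at an adjusted p under 0.01, and ran from 393 to 1519 with each replicate left out, the highest without exposed replicate 2 at 30 weeks. They were 427 and 483 without either 15-week control and 463 and 393 without either 15-week exposed sample. With GC and length offsets the 3 counts were 6868, 7903 and 1181, and with DESeq2 8002, 8673 and 1110. Same-numbered exposed samples did not deviate together (correlations of -0.105 for replicate 1 and -0.142 for replicate 2). With 2 samples at 15 weeks, the deviations of replicate 1 mirror those of replicate 2. Whether the numbers pair the samples therefore cannot be told from these correlations. With the replicate block the counts were 6470, 7866 and 670. Leaving out a 15-week sample leaves 1 in that group, which is then assumed to vary like the other groups. Of 241 results for named genes, 178 were called under every alternative in which the gene was tested, and none changed direction. The fold of at least 2 was not applied to single genes. An alternative that left a gene out was not counted for it: the changes of SYK, MECOM and CDH1 were tested in 18 alternatives, that of IL32 in 19. The difference for FLT4 ran from -9.264 to -4.772 and lost its call without replicate 2 at 15 weeks of exposure (-4.956, edgeR adjusted p = 0.293). The calls of ITGB4, SMAD3, WNT5B, FBN1, VCAN, COL4A5, COL5A2, PKP3, UQCRC2 and GSTM3 in exposed cells were lost without either 15-week sample in turn. Those of HSPA5, HSPA8, ATP5F1A, ATP5PB, RRM2B, MT1M, SMAD7, LRRN4CL, FLT4, CELF2 and COL24A1 were lost without replicate 1 at 15 weeks, and those of FGF5, NRG1, BIRC5, ERAP1, MYOD1 and ZNF580 without replicate 2. The fit with GC and length offsets also lost RRM2B, WNT5B, UQCRC2, GSTM3 and LRRN4CL. The 2 samples at 15 weeks limit these counts, and the batch cannot be separated from time between 15 and 30 weeks.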
